A study of Mus musculus with 12 samples.

Results

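Polycomb repressive complex 1 (PRC1) is the chromatin complex that attaches ubiquitin to histone H2A (the mark H2AK119ub) and, in its canonical form, compacts chromatin marked by trimethylated lysine 27 of histone H3 (H3K27me3). Every PRC1 holds RING1 or RNF2 (RING1B), the ubiquitin ligases, together with a PCGF protein, by which the complexes are grouped. Canonical complexes are built around BMI1 or PCGF2 and carry a CBX protein, which reads H3K27me3, and a PHC protein, which polymerizes. The complexes built around PCGF1, PCGF3, PCGF5 or PCGF6 are variant ones and find chromatin by other routes. In blood, BMI1 is known as a factor that hematopoietic stem cells (HSCs) need to renew themselves, and ASXL1 is a partner of BAP1, the deubiquitinase that takes the mark off again. The genes described here were chosen by name as PRC1 subunits: the ligases Ring1 and Rnf2, the PCGF genes Bmi1, Pcgf1, Pcgf5 and Pcgf6, the CBX genes Cbx2, Cbx7 and Cbx8, and Phc2. They are 10 of the 55291 genes in the count table, and all 10 were among the 15825 genes with enough reads to be tested.

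RNA-Seq was performed on bone marrow Lin-cKit+ (LK) cells, a preparation enriched for hematopoietic stem and progenitor cells that was purified on beads. The C57BL/6 mice were about 12 months old by the study's methods and fell into 4 genotypes of 3 mice, with 1 library for each mouse. WT mice carried neither change, and Kdm6bΔ/+ mice had lost 1 allele of Kdm6b, which encodes an H3K27 demethylase. Asxl1Y588XTg mice carried a transgene for a C-terminally truncated ASXL1 protein, and Asxl1Y588XTg Kdm6bΔ/+ mice carried both changes. The deletion was made with Mx1Cre, an interferon-inducible Cre that also acts outside the blood, after injection of pI:pC. The promoter of the transgene is not given in the sources used here. For a transplantation experiment of the study the methods describe the WT donors as Mx1Cre carriers, with pI:pC given to the recipients. For the mice sequenced here, whether those without the deletion carried Mx1Cre or received pI:pC is not given in the sources used here, so Cre, pI:pC and the deletion cannot be told apart.

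Each library held between 14451522 and 23482563 counts (median 17125385), and the 10 subunit genes together took between 0.0287% and 0.0351% of them. Kit, whose protein was used to select the cells, had counts in every library, and so did Cd34 and Ptprc, which were not used for the selection. A list of 9 neutrophil marker genes took between 5.46% and 7.90% of all counts, so maturing myeloid RNA was present throughout. Kdm6b was at 1869 to 2371 normalized counts in WT, 1346 to 1623 in Kdm6bΔ/+, 2187 to 2302 in Asxl1Y588XTg and 1649 to 1909 in Asxl1Y588XTg Kdm6bΔ/+, which gave a log2 fold change for the deletion of -0.41 (SE 0.07, edgeR adjusted p = 0.0129). Asxl1 has a single row in the table, and its level did not separate the transgenic mice from WT (log2 fold change 0.10, SE 0.09, edgeR adjusted p = 0.836). Transcripts of the Y chromosome were found in 0 of 3 WT, 2 of 3 Kdm6bΔ/+, 1 of 3 Asxl1Y588XTg and 3 of 3 Asxl1Y588XTg Kdm6bΔ/+ libraries, so sex was not balanced over the genotypes. Within the pair Asxl1Y588XTg Kdm6bΔ/+ against WT, sex and genotype went together in every mouse and cannot be told apart. In bulk RNA, fewer cells of a type and less RNA per cell cannot be told apart.

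None of the 10 subunit genes was called different in any of 7 comparisons. A normalized count below is a read count scaled to a library of average size, and a gene was called where the edgeR quasi-likelihood test gave an adjusted p under 0.05 together with a fold change above 1.5. The share of all tested genes called was 1.61% for Asxl1Y588XTg against WT, 0.0948% for Kdm6bΔ/+ against WT, 1.74% for Asxl1Y588XTg Kdm6bΔ/+ against Asxl1Y588XTg and 0.215% for Asxl1Y588XTg Kdm6bΔ/+ against WT. It was 1.92% for the transgene effect and 0.348% for the deletion effect, each estimated over all 12 mice with the other change as a second term, and 0.0126% for the interaction, which asks whether the deletion acts differently with and without the transgene. With shares this low, a list of 10 genes without a call is near the background. DESeq2 also called 0 of the 10 in each comparison.

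Before adjustment, between 0 and 2 of the 10 subunit genes passed the 0.05 level of the edgeR test in each comparison, which is near the background. For Asxl1Y588XTg against WT it was 1 of 10 (Cbx7, higher), against 9.35% of all genes, and for Kdm6bΔ/+ against WT it was 1 of 10 (Pcgf1, higher), against 3.49%. For Asxl1Y588XTg Kdm6bΔ/+ against Asxl1Y588XTg it was 0 of 10, against 15.4%, and for Asxl1Y588XTg Kdm6bΔ/+ against WT 1 of 10 (Pcgf5, lower), against 6.79%. The interaction gave 0 of 10, against 6.87%, the transgene effect 2 of 10 (Cbx7, higher, and Pcgf5, lower), against 13.7%, and the deletion effect 0 of 10, against 9.81%. Groups that did not overlap were found for 2 of 10 genes (Cbx7 and Pcgf5) in Asxl1Y588XTg against WT, where 15.7% of all genes were separated, and for 1 of 10 (Pcgf1) in Kdm6bΔ/+ against WT, where 8.94% were. They were found for 1 of 10 (Cbx7) in Asxl1Y588XTg Kdm6bΔ/+ against Asxl1Y588XTg, with 21.2% of all genes, and for 1 of 10 (Pcgf5) in Asxl1Y588XTg Kdm6bΔ/+ against WT, with 13.5%. Between the 6 mice with and the 6 without the transgene, 1 of 10 was separated (Pcgf5), with 1.69% of all genes.

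**Figure D1:**
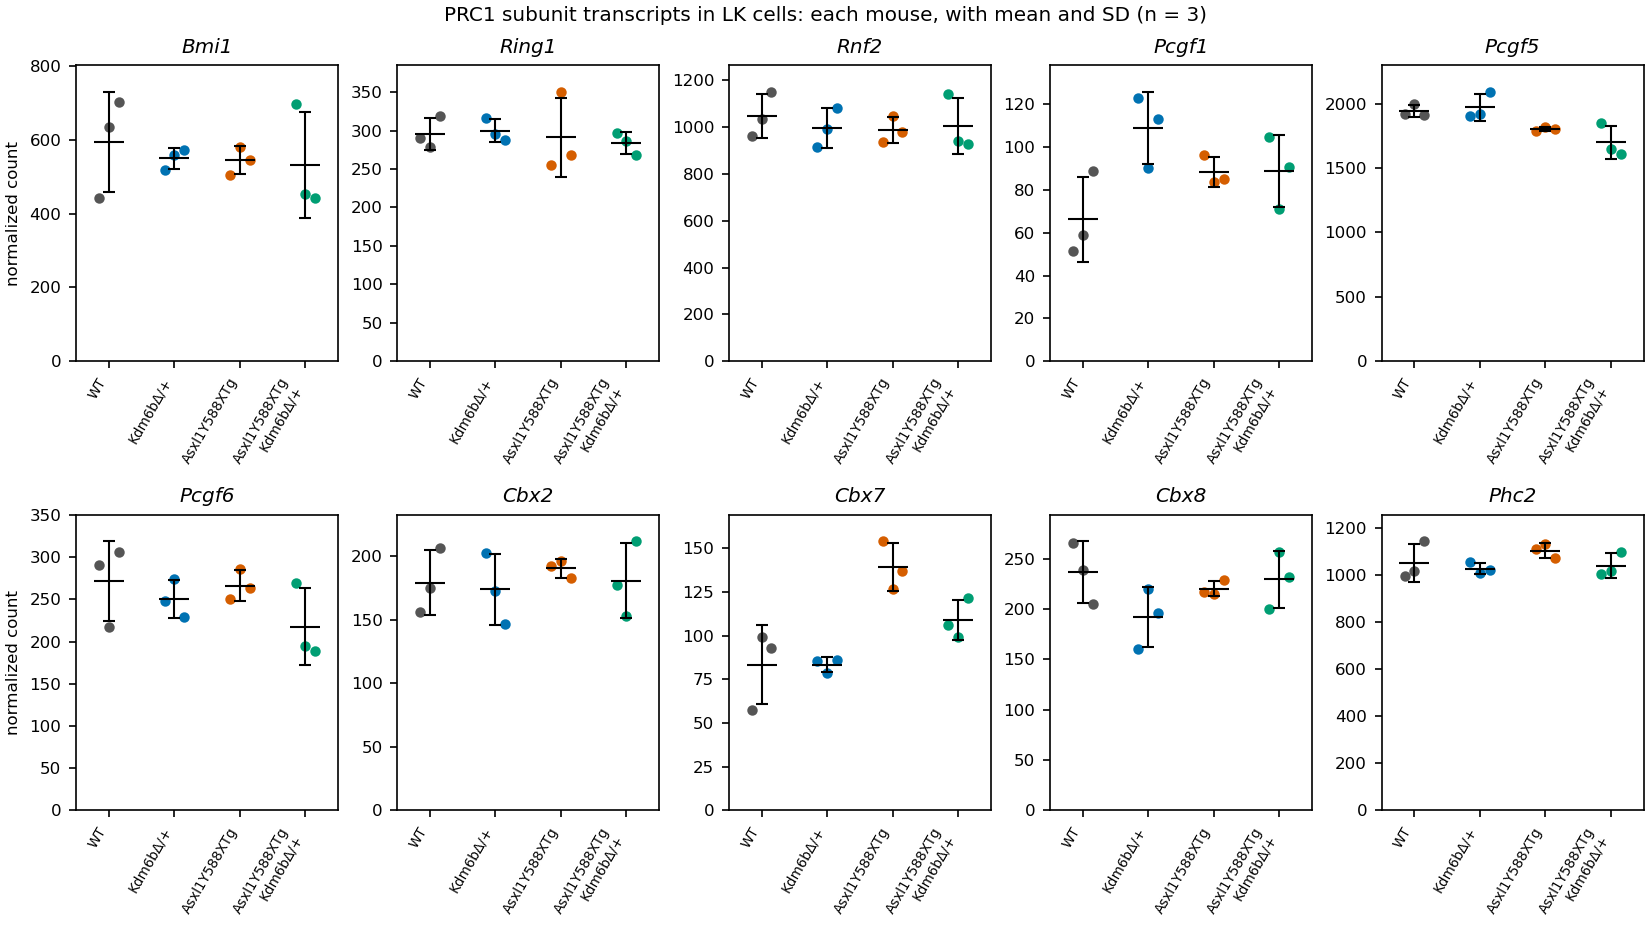
Normalized counts (linear axes starting at 0, each panel with its own scale) of the 10 PRC1 subunit genes in the 3 mice of each genotype, with the mean and SD as a horizontal line and bars. The groups overlap in most panels, and Cbx7 in Asxl1Y588XTg mice stands above WT and Kdm6bΔ/+ mice without overlap.

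The data also bounded how large a difference could have been missed. The 95% interval of the fold change lay wholly within 1.5-fold in either direction for 8 of the 10 genes in Asxl1Y588XTg against WT, for 7 in Kdm6bΔ/+ against WT, for 8 in Asxl1Y588XTg Kdm6bΔ/+ against Asxl1Y588XTg and for 6 in Asxl1Y588XTg Kdm6bΔ/+ against WT. It did so for 9 of 10 in the transgene effect, with Cbx7 as the exception, and for 9 of 10 in the deletion effect, with Pcgf1 as the exception. Ring1, Rnf2, Pcgf5, Cbx2 and Phc2 lay within those bounds in all 6 of these comparisons. Cbx7, Pcgf1, Pcgf6, Cbx8 and Bmi1 each reached beyond them in at least 1, and the interaction, which rests on differences of differences, left the same 5 genes with wider intervals.

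**Figure D2:**
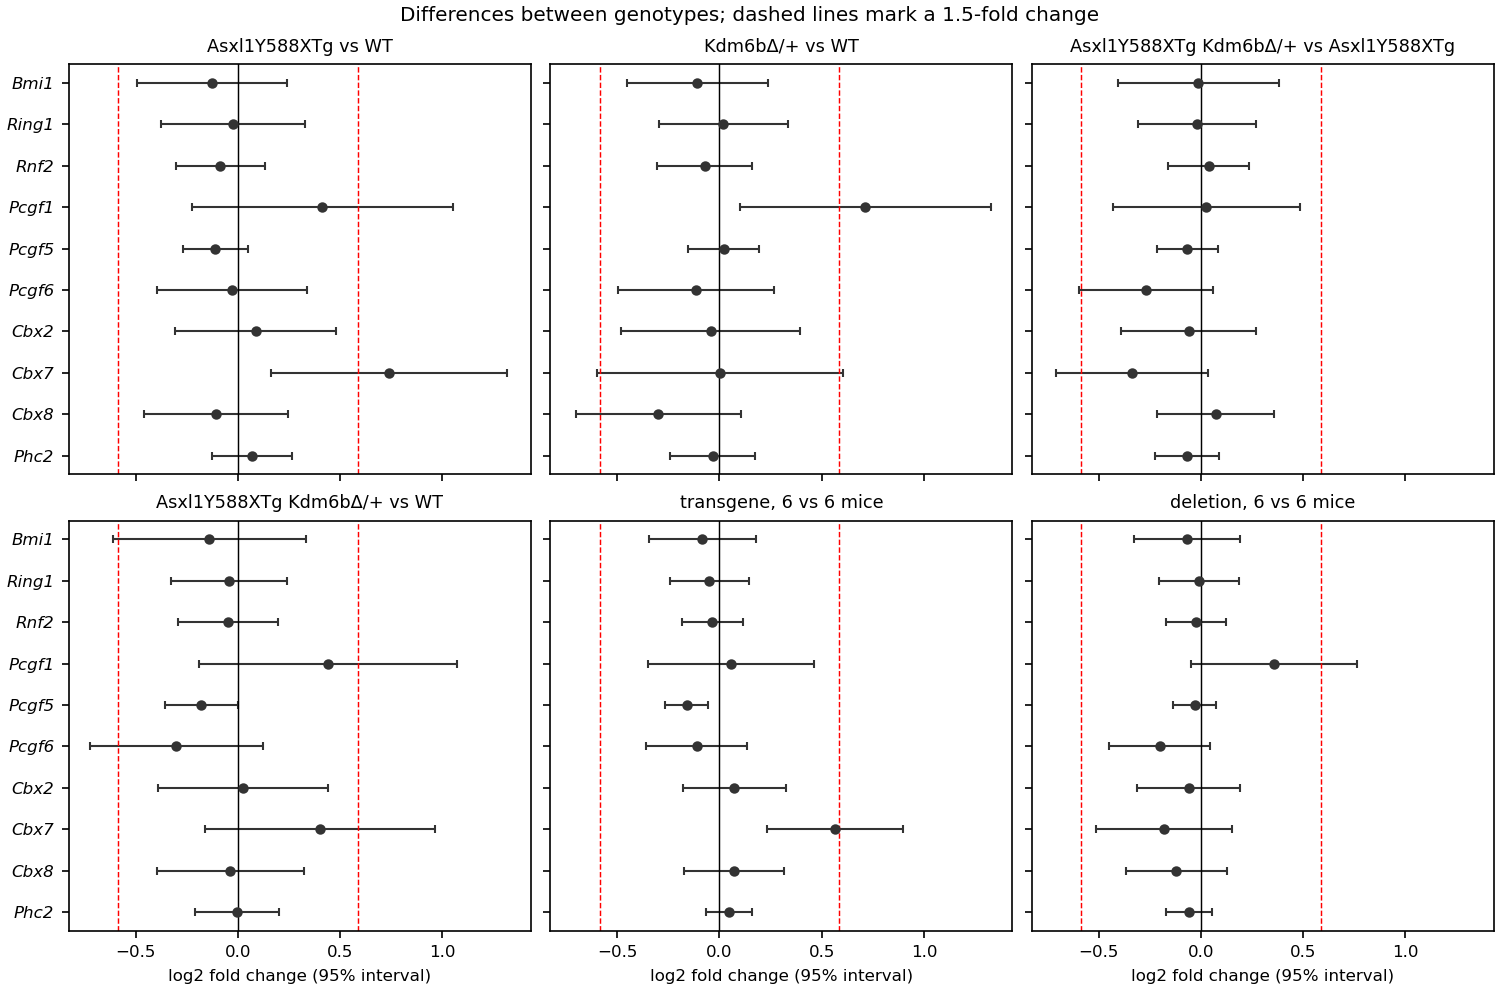
Log2 fold changes (points) with 95% intervals (bars) of the 10 genes in 4 pairwise comparisons and in the transgene and deletion effects over 12 mice, with dashed lines at a 1.5-fold change in either direction. Most intervals sit between the dashed lines and cross 0, with Cbx7 to the right in Asxl1Y588XTg against WT and in the transgene effect and Pcgf1 to the right in Kdm6bΔ/+ against WT.

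Rnf2 and Ring1, the catalytic subunits, showed no difference between genotypes beyond the spread between mice. Rnf2 (chromosome 1, 151458004 to 151500955, minus strand, mm10) had normalized counts of 961, 1034 and 1150.1 in WT, 914, 993 and 1083 in Kdm6bΔ/+, 938, 1049.5 and 981 in Asxl1Y588XTg and 1143, 942 and 927 in Asxl1Y588XTg Kdm6bΔ/+. The 4 groups overlapped, and the library with the highest value was a WT one. The log2 fold change was -0.09 (95% interval -0.30 to 0.13) for Asxl1Y588XTg against WT, -0.07 (-0.30 to 0.16) for Kdm6bΔ/+ against WT and 0.04 (-0.16 to 0.24) for Asxl1Y588XTg Kdm6bΔ/+ against Asxl1Y588XTg. Trmt1l on the other strand shares 158 exonic bases with Rnf2, and whether the counting used strand is not given. Ring1 (chromosome 17, 34020792 to 34024680, minus strand) had normalized counts of 290.0, 279 and 319 in WT, 317, 295 and 288 in Kdm6bΔ/+, 255, 350.2 and 268 in Asxl1Y588XTg and 297, 287 and 268 in Asxl1Y588XTg Kdm6bΔ/+. The second Asxl1Y588XTg mouse was the highest of the 12 and the first the lowest, so the spread within that genotype spanned all other mice. The transgene effect on Ring1 was -0.05 (-0.24 to 0.15) and the deletion effect -0.01 (-0.20 to 0.19), both log2.

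The balance between the 2 ligases was read next, with the same outcome. Per length of exon, Ring1 made up 26.5% ± 1.2 (SD, n = 3) of the sum of both in WT, 27.8% ± 2.7 in Kdm6bΔ/+, 27.1% ± 2.3 in Asxl1Y588XTg and 26.6% ± 1.6 in Asxl1Y588XTg Kdm6bΔ/+. The mean share was 0.274 percentage points lower with the transgene (two-sided exact permutation p = 0.815) and 0.390 points higher with the deletion (p = 0.73 by the same exact test). A share within a library does not depend on how libraries are scaled to each other, and each of these tests permuted the mice within the levels of the other factor, in 400 arrangements. Rnf2 was the more abundant transcript in every mouse.

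Among the PCGF genes, Bmi1 spanned its whole range within WT. Bmi1 (chromosome 2, 18677018 to 18686629, plus strand), the PCGF subunit of canonical PRC1 that HSCs depend on, had normalized counts of 442, 637 and 704 in WT, 519, 558 and 573 in Kdm6bΔ/+, 506, 582 and 547 in Asxl1Y588XTg and 699, 455 and 444 in Asxl1Y588XTg Kdm6bΔ/+. The lowest value of the 12 was in the first WT mouse and the highest in WT mouse 3. The first Asxl1Y588XTg Kdm6bΔ/+ mouse came next below the highest, well above the other 2 of its genotype. The log2 fold change of Bmi1 was -0.13 (-0.49 to 0.24) for Asxl1Y588XTg against WT and -0.11 (-0.45 to 0.24) for Kdm6bΔ/+ against WT. Its share of all PCGF transcripts per exonic length was 31.6% ± 4.2 (SD, n = 3) in WT and 28.6% ± 0.9 in Asxl1Y588XTg, and neither the transgene (exact permutation p = 0.51) nor the deletion (exact permutation p = 0.575) gave a difference beyond the spread.

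Pcgf1, the PCGF subunit of the variant complex with KDM2B and BCOR that binds unmethylated CpG islands, was the least counted of the PCGF members. Pcgf1 (chromosome 6, 83077869 to 83080855, plus strand) had normalized counts of 51.2, 59.0 and 88.8 in WT, 123, 90.2 and 113 in Kdm6bΔ/+, 96.5, 83.5 and 85.1 in Asxl1Y588XTg and 105, 71.0 and 90.8 in Asxl1Y588XTg Kdm6bΔ/+. All 3 Kdm6bΔ/+ mice were above all 3 WT mice, by a narrow gap, and both groups with the transgene lay between them or overlapped both. The log2 fold change for Kdm6bΔ/+ against WT was 0.71 (SE 0.28, interval 0.10 to 1.33, edgeR adjusted p = 0.9999), and without each mouse in turn it ran from 0.55 to 0.99. With the transgene present the deletion gave 0.03 (-0.43 to 0.48), and the interaction was -0.70 (-1.44 to 0.03, edgeR adjusted p = 0.739).

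Pcgf5 and Pcgf6 belong to variant complexes. Pcgf5 (chromosome 19, 36348309 to 36460970, plus strand) had the highest counts of the 10 genes, with normalized counts of 1923, 1996 and 1913 in WT, 1903, 1919.7 and 2090.3 in Kdm6bΔ/+, 1785, 1820.4 and 1801 in Asxl1Y588XTg and 1848, 1649.8 and 1608 in Asxl1Y588XTg Kdm6bΔ/+. Every mouse with the transgene was below every mouse without it. The transgene effect was small, at -0.16 (SE 0.05, interval -0.27 to -0.05), and did not pass adjustment over all genes (edgeR adjusted p = 0.122). With each library left out it ran from -0.18 to -0.12. Its adjusted p (edgeR or DESeq2) ran from 0.066 to 0.39 over all alternatives. The pairwise values were -0.11 (-0.27 to 0.05) for Asxl1Y588XTg against WT and -0.18 (-0.36 to -0.0017, edgeR adjusted p = 0.730) for Asxl1Y588XTg Kdm6bΔ/+ against WT, and the deletion effect was -0.03 (-0.14 to 0.07). An antisense transcript, F530104D19Rik, shares 60 exonic bases with Pcgf5. Pcgf6 (chromosome 19, 47033617 to 47050906, minus strand), part of the complex with MGA and L3MBTL2, had normalized counts of 291, 217 and 306 in WT, 248, 275 and 229 in Kdm6bΔ/+, 250.4, 286 and 263 in Asxl1Y588XTg and 270.0, 195 and 189 in Asxl1Y588XTg Kdm6bΔ/+. Asxl1Y588XTg Kdm6bΔ/+ mice 2 and 3 were the lowest of the 12, while the first of that genotype lay among the others. The log2 fold change of Pcgf6 for Asxl1Y588XTg Kdm6bΔ/+ against Asxl1Y588XTg was -0.27 (-0.60 to 0.06, edgeR adjusted p = 0.422).

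Cbx7, the H3K27me3 reader that is best known in HSCs, showed the largest difference among the 10 genes in Asxl1Y588XTg mice, and it did not pass the test over all genes. Cbx7 (chromosome 15, 79915807 to 79971119, minus strand) had normalized counts of 57.6, 99.4 and 93.1 in WT, 85.5, 78.3 and 86.2 in Kdm6bΔ/+, 154, 127 and 137 in Asxl1Y588XTg and 106, 99.0 and 122 in Asxl1Y588XTg Kdm6bΔ/+. The 3 Asxl1Y588XTg mice were the 3 highest of the 12, and the 3 Asxl1Y588XTg Kdm6bΔ/+ mice were below all of them while overlapping WT. The log2 fold change was 0.74 (SE 0.26, interval 0.16 to 1.31, edgeR adjusted p = 0.312) for Asxl1Y588XTg against WT and -0.34 (SE 0.17, interval -0.71 to 0.03, adjusted p = 0.376) for Asxl1Y588XTg Kdm6bΔ/+ against Asxl1Y588XTg. Kdm6bΔ/+ and WT had the same mean (log2 fold change 0.00214, interval -0.60 to 0.60), and Asxl1Y588XTg Kdm6bΔ/+ against WT gave 0.40 (-0.16 to 0.96). Over all 12 mice the transgene effect was 0.57 (SE 0.16, interval 0.23 to 0.90, edgeR adjusted p = 0.0778). The difference between the deletion's values with and without the transgene was -0.36 (-1.01 to 0.30, edgeR adjusted p = 0.858), so a lower Cbx7 with the deletion in transgenic mice only was not shown.

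The value for Cbx7 leaned on few reads and on 1 mouse more than on the others. The first WT mouse had the lowest Cbx7 of all, and without it the log2 fold change for Asxl1Y588XTg against WT was 0.53, the lowest of the 6 values with a mouse left out, the highest being 0.89. DESeq2 gave the transgene effect at 0.58 with an adjusted p of 0.0140, just under the 1.5-fold limit of a call, and a fit that adds the presence of Y-linked RNA gave 0.58 with an adjusted p of 0.162. Over all alternatives, the adjusted p of this effect ran from that of DESeq2 up to 0.182 without the first Asxl1Y588XTg mouse. The exons of Cbx7 overlap those of Apobec3 on the other strand by 100 bases.

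Markers of HSCs moved with Cbx7. The summed normalized count of 12 HSC marker genes, among them Procr, Hlf, Mecom and Hoxa9, was 2092 to 2706 in WT, 1833 to 2129 in Kdm6bΔ/+, 5139 to 6199 in Asxl1Y588XTg and 2142 to 3094 in Asxl1Y588XTg Kdm6bΔ/+. Of the 12 genes, 9 were called higher in Asxl1Y588XTg than in WT (1.61% of all genes called). In Asxl1Y588XTg Kdm6bΔ/+, 8 were called lower than in Asxl1Y588XTg (1.74%). The list was chosen with earlier results of these data known. It holds Meis1, which the study reports as higher in Asxl1Y588XTg cells and lower again with the deletion. These counts are therefore not an independent test. All 12 genes had counts in every library. The sum of 6 megakaryocyte markers was 974 to 1720 in WT, 1128 to 1323 in Kdm6bΔ/+, 2322 to 6214 in Asxl1Y588XTg and 1845 to 2619 in Asxl1Y588XTg Kdm6bΔ/+. It was higher in each of the 6 mice with the transgene than in each of the 6 without it, the same split of mice as for Pcgf5, while the HSC sums of Asxl1Y588XTg Kdm6bΔ/+ and WT overlapped. The sum of 7 endothelial and stromal markers was 1792 to 2071 in WT, 1695 to 3039 in Kdm6bΔ/+, 2178 to 2549 in Asxl1Y588XTg and 2292 to 3844 in Asxl1Y588XTg Kdm6bΔ/+, so both transgenic genotypes were above WT without overlap and Kdm6bΔ/+ overlapped all of them. Of 10 erythroid markers, 3 were called lower in Asxl1Y588XTg Kdm6bΔ/+ than in WT (0.215% of all genes called). In Kdm6bΔ/+ against WT 1 was called lower (0.0948%), and so was 1 for the deletion effect (0.348%). Of 6 proliferation markers, 4 were lower at an unadjusted edgeR p under 0.05 for the transgene effect, with 13.7% of all genes, and 0 were called. The part of a different make-up of the LK cells in the Cbx7 and Pcgf5 values was not tested.

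Cbx2 and Cbx8, which lie next to each other on chromosome 11, showed no difference beyond the spread between mice. Cbx2 (119022962 to 119031270, plus strand) had normalized counts of 156, 175 and 206 in WT, 202, 173 and 146 in Kdm6bΔ/+, 192, 196 and 182 in Asxl1Y588XTg and 177, 153 and 211 in Asxl1Y588XTg Kdm6bΔ/+. The lowest Cbx2 value was in a Kdm6bΔ/+ mouse and the highest in an Asxl1Y588XTg Kdm6bΔ/+ mouse, and the 4 groups overlapped. Its transgene effect was 0.07 (-0.18 to 0.32) and its deletion effect -0.06 (-0.31 to 0.19). Cbx8 (119036305 to 119040969, minus strand) had normalized counts of 266, 239 and 205 in WT, 161, 220.1 and 196 in Kdm6bΔ/+, 217, 215 and 229 in Asxl1Y588XTg and 199.9, 257 and 232 in Asxl1Y588XTg Kdm6bΔ/+. The first WT mouse was the highest and the first Kdm6bΔ/+ mouse the lowest, and Kdm6bΔ/+ against WT gave -0.30 (-0.70 to 0.11, edgeR adjusted p = 0.9999). For Asxl1Y588XTg against WT Cbx8 gave -0.11 (-0.46 to 0.25), on the other side of 0 from Cbx7.

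Phc2, the most even of the 10 genes, encodes a polymerizing subunit of canonical PRC1. Phc2 (chromosome 4, 128654702 to 128752881, plus strand) had normalized counts of 994, 1016 and 1143 in WT, 1055, 1006 and 1019.7 in Kdm6bΔ/+, 1109, 1131 and 1071 in Asxl1Y588XTg and 1003, 1018 and 1099 in Asxl1Y588XTg Kdm6bΔ/+. Its highest value was 1.15 times its lowest, and its coefficient of variation over the 12 mice was 5.07%, against 26.1% for Cbx7 and 23.6% for Pcgf1, which have far fewer reads. The log2 fold change was 0.07 (-0.13 to 0.27) for Asxl1Y588XTg against WT and -0.07 (-0.23 to 0.09) for Asxl1Y588XTg Kdm6bΔ/+ against Asxl1Y588XTg. Phc2 made up 52.1% to 55.1% of PHC transcripts per exonic length in the 4 group means, and neither factor gave a difference beyond the spread (exact permutation p = 0.69 for the transgene and 0.34 for the deletion). Adjusted over 8 tests of shares, the exact permutation p was 0.815 for each of the 6 tests on Ring1, Bmi1 and Phc2.

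The order of levels was compared per length of exon, as counts scaled to library size per kilobase of exon, averaged over the 12 libraries. Rnf2 was the highest at 13.9, followed by Phc2 at 8.49, Pcgf5 at 8.34, Bmi1 at 7.94, Ring1 at 5.13, Cbx8 at 3.40, Pcgf1 at 3.04, Pcgf6 at 2.84, Cbx2 at 2.41 and Cbx7 at 0.908. Rnf2 was above Phc2 in 12 of 12 libraries, Bmi1 above Ring1 in 12, Ring1 above Cbx8 in 12 and Cbx2 above Cbx7 in 12. Phc2 was above Pcgf5 in 6 of 12 libraries, Pcgf5 above Bmi1 in 8 and Pcgf1 above Pcgf6 in 7, so these neighbours did not differ beyond their spread. Cbx8 was above Pcgf1 in 9 and Pcgf6 above Cbx2 in 11. With the longest transcript of each gene as the length, Pcgf5 moved to place 2 and Phc2 to place 3, and Cbx8 moved from place 6 to place 8, behind Pcgf1 and Pcgf6, so the middle of the order depends on which transcripts these cells use.

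**Figure D3:**
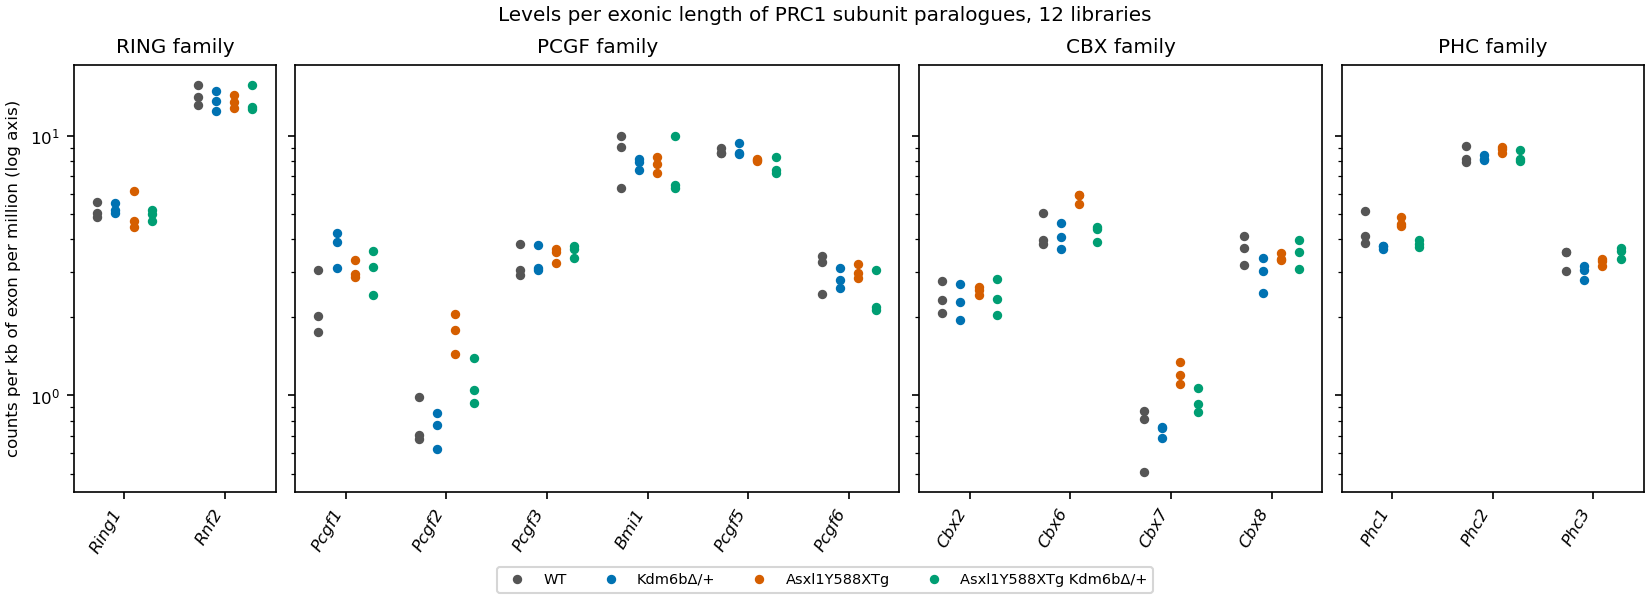
Counts scaled to library size per kilobase of exon (log axis) of the PRC1 paralogues of the RING, PCGF, CBX and PHC families in each of the 12 libraries, coloured by genotype. Rnf2 lies above Ring1 in every library, Cbx7 is the lowest of the CBX genes shown, and for Pcgf2, Cbx6 and Cbx7 the Asxl1Y588XTg points lie above the WT points without overlap.

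The other genes of PRC1 were read from a list of 32, all of them tested. For Asxl1Y588XTg against WT edgeR called 0 of 32, with 1.61% of all genes called, and DESeq2 called 1 (Pcgf2), with 473 genes called in all. By edgeR, 3 of the 32 passed an unadjusted p of 0.05, near the 9.35% of all genes that did, and the median log2 fold change was -0.02, against -0.01 over all genes tested. For the transgene effect over 12 mice 1 of 32 was called by both tools, with 1.92% of all genes called by edgeR, so the count is near the background. This gene was Pcgf2 (Mel18), the closest paralogue of Bmi1 and the alternative PCGF subunit of canonical PRC1. Normalized counts of Pcgf2 were 42.1, 43.7 and 61.0 in WT, 47.8, 38.7 and 53.0 in Kdm6bΔ/+, 89.5, 128 and 111 in Asxl1Y588XTg and 64.9, 58.0 and 86.6 in Asxl1Y588XTg Kdm6bΔ/+. The 3 Asxl1Y588XTg mice were the 3 highest of the 12, and the Asxl1Y588XTg Kdm6bΔ/+ mice lay below them and overlapped WT. The transgene effect was 0.88 (SE 0.20, interval 0.47 to 1.29, edgeR adjusted p = 0.0241). Asxl1Y588XTg against WT gave 1.16 (SE 0.28, interval 0.54 to 1.78, adjusted p = 0.0866) and Asxl1Y588XTg Kdm6bΔ/+ against Asxl1Y588XTg gave -0.63 (SE 0.23, adjusted p = 0.201). The call was lost without WT mouse 3 (adjusted p = 0.0510), Asxl1Y588XTg mouse 2 (0.0775) or 3 (0.0595) or Asxl1Y588XTg Kdm6bΔ/+ mouse 3 (0.0733) and in the fit that adds the presence of Y-linked RNA (0.115).

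Cbx6, another CBX gene, was highest in Asxl1Y588XTg mice, as were Cbx7 and Pcgf2, and had higher counts than either. Its normalized counts were 741, 717 and 946 in WT, 689, 865 and 761 in Kdm6bΔ/+, 1104, 1109 and 1024 in Asxl1Y588XTg and 820.3, 729.9 and 834 in Asxl1Y588XTg Kdm6bΔ/+. The Asxl1Y588XTg mice were above all other 9 mice, and the other 3 genotypes overlapped. Asxl1Y588XTg against WT gave a log2 fold change of 0.43 (SE 0.12, adjusted p = 0.145), and Asxl1Y588XTg Kdm6bΔ/+ against Asxl1Y588XTg gave -0.42 (SE 0.08, edgeR adjusted p = 0.0273), which is under the 1.5-fold limit of a call. The Asxl1Y588XTg mice enter both of these comparisons. Over all alternatives, the adjusted p (edgeR or DESeq2) ran from 0.0083 to 0.39 for the first comparison and from 0.00023 to 0.43 for the second. The exons of Cbx6 share 563 bases on the same strand with Npcd, so reads there could have gone to either gene or to none. The HSC marker sums given above were also highest in the 3 Asxl1Y588XTg mice, and the part of these and of the megakaryocyte markers in the Pcgf2 and Cbx6 values was not tested. For Cbx6 the transgene effect was 0.24 (SE 0.09, adjusted p = 0.240), the deletion effect -0.25 (SE 0.09, adjusted p = 0.337) and the interaction -0.39 (SE 0.16, adjusted p = 0.675).

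**Figure D4:**
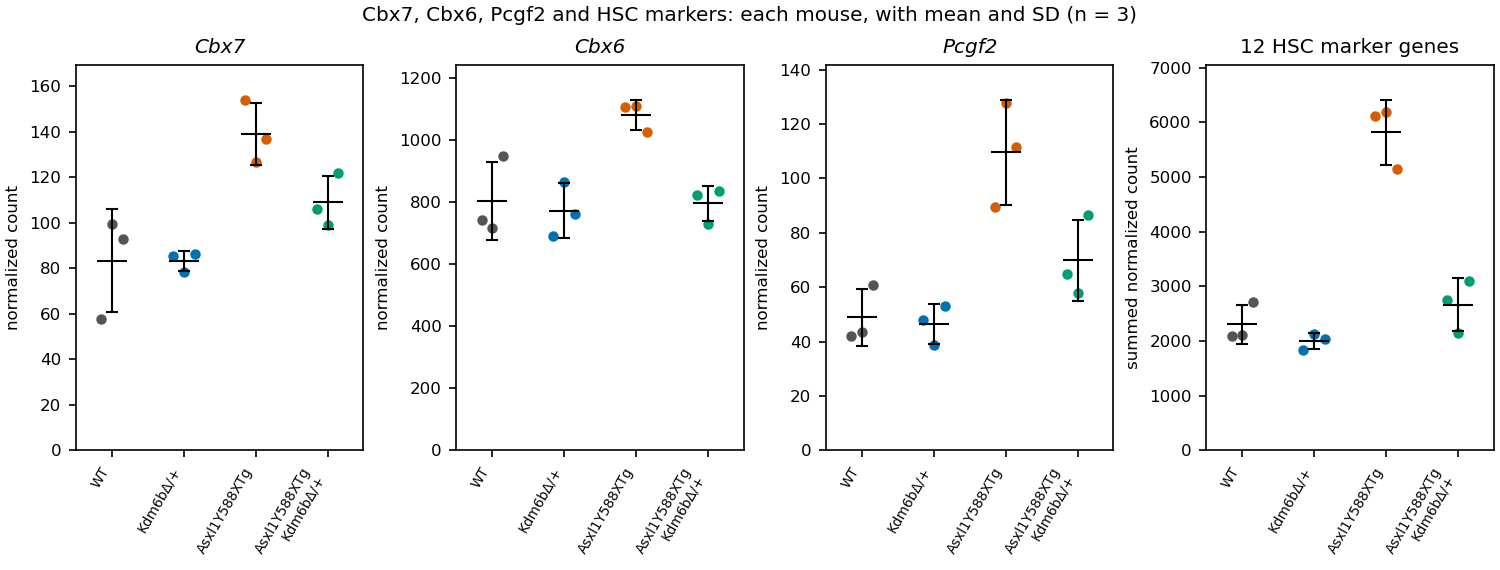
Normalized counts (linear axes starting at 0) of Cbx7, Cbx6 and Pcgf2, and the summed normalized count of 12 HSC marker genes, in the 3 mice of each genotype with mean and SD. In all 4 panels the Asxl1Y588XTg mice are above the other 9 mice.

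For the transgene effect, 2 of the 32 genes were higher and 3 lower at an unadjusted edgeR p under 0.05, with 13.7% of all genes. For the deletion effect 1 was higher and 3 lower, with 9.81% of all genes, so these counts are near the background. Phc1, a paralogue of Phc2, was lower in Asxl1Y588XTg Kdm6bΔ/+ than in Asxl1Y588XTg at -0.26 (SE 0.09, adjusted p = 0.200) and gave -0.25 (SE 0.08, adjusted p = 0.238) for the deletion effect. L3mbtl2, a subunit of the PCGF6 complex, gave -0.22 (SE 0.09) for Asxl1Y588XTg Kdm6bΔ/+ against WT and -0.21 (SE 0.07, adjusted p = 0.155) for the transgene effect. Fbrsl1 gave -0.28 (SE 0.12) for Kdm6bΔ/+ against WT, Scml4 -0.57 (SE 0.26) for the deletion effect and Phc3 0.30 (SE 0.12) for the interaction. Pcgf3, the PCGF paralogue closest to Pcgf5, gave a transgene effect of 0.11 (-0.06 to 0.29) and a deletion effect of 0.04 (-0.14 to 0.21). The medians of the 32 genes lay between -0.02 and -0.00054 in the 7 comparisons.

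For the genes that remove the mark, the counts of calls were near the background. Of 13 genes of H2AK119 deubiquitination, which include Bap1, Usp16 and Mysm1, 12 were tested, 0 were called in any comparison by edgeR or by DESeq2, and 0 to 2 passed an unadjusted p of 0.05 in each by edgeR. Over all genes, 0.0126% to 1.92% were called by edgeR and 3.49% to 15.4% passed that unadjusted p, so nothing can be read from these counts about the 12 genes. Foxk1, which encodes a DNA-binding partner of BAP1, gave 0.25 (SE 0.08, adjusted p = 0.546) for Asxl1Y588XTg Kdm6bΔ/+ against WT, Mbd6 0.26 (SE 0.11) for Asxl1Y588XTg against WT and Asxl2 0.25 (SE 0.11) for the interaction. Mbd5 gave 0.25 (SE 0.09, adjusted p = 0.191) for Asxl1Y588XTg Kdm6bΔ/+ against Asxl1Y588XTg. Of 4 known PRC1 targets, Cdkn2a and Cdkn2b, cell cycle inhibitors of a locus that PRC1 represses, had too few counts to be tested. Ebf1 and Pax5, regulators of B cells, were not called. Their 2 log2 fold changes were -0.80 and -0.57 for Asxl1Y588XTg against WT. For Asxl1Y588XTg Kdm6bΔ/+ against Asxl1Y588XTg they were 0.81 and 0.83. Within WT alone, normalized counts ran from 203 to 523 for Ebf1 and from 206 to 448 for Pax5. The lack of a call therefore does not show that these 2 genes were unchanged.

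Single mice stood out across several subunits. The first WT mouse had the lowest value of the 12 for Bmi1, Pcgf1, Cbx7 and Phc2 and the highest for Cbx8, and WT mouse 3 had the highest for Bmi1, Rnf2, Pcgf6 and Phc2. Values for WT therefore spanned much of the range in these genes, and each comparison with WT carries that spread in its interval. Extremes were not confined to WT. The first Kdm6bΔ/+ mouse was the lowest for Rnf2 and Cbx8 and the highest for Pcgf1. Mouse 3 of Asxl1Y588XTg Kdm6bΔ/+ was the lowest for Pcgf5 and Pcgf6 and the highest for Cbx2.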

How the data were processed

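RNA was sequenced from LK cells of 12 mice. Per the labels, the authors used the NEB Ultra kit and a NextSeq instrument, while the study's methods name a stranded KAPA kit and another instrument, so the kit is uncertain. Reads were trimmed with Trimmomatic, aligned to mm10 with STAR and counted per gene with HTSeq, and the deposited values are raw read counts per gene. Annotation and strand setting are not given in the sources used here. Groups follow the labels. Genes passing filterByExpr over the 4 genotypes were tested with the edgeR 4.0.16 quasi-likelihood test (robust, TMM scaling, R 4.3.3), on the 6 libraries of each pair or on all 12 for the interaction and the 2 additive effects, with Benjamini-Hochberg adjustment. All p-values other than those called permutation are from edgeR unless DESeq2 (1.42.0) is named. Intervals are at 95%. Levels per length used summed exons of GENCODE vM21 (mm10). Shares were tested by exact stratified permutation, and 1 planned share is not reported here. The code was tested on simulated data. Alternatives were other scaling, DESeq2, other filters, a joint fit, a replicate block, a term for Y-linked transcripts and each library left out. The term for Y-linked transcripts (at least 100 counts of Ddx3y) was fitted with all 12 libraries, also for the pairs. The subunits and gene lists were chosen with earlier results of these data known. All 10 subunits are described. From the wider lists, called genes, the paralogues in the shares and, per comparison, up to 3 genes with the largest change at an unadjusted p under 0.05 are named, and Mbd5 was added after its values were seen. Same-numbered libraries did not deviate together (median r -0.058 over 18 pairs, range -0.15 to 0.15), so the numbers were not taken as pairs.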

Additional observations from a re-analysis of the deposited data

How the results depend on the processing

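No alternative gave a call for any of the 10 subunits, and 989 subunit fold changes kept their direction and their side of the threshold. Another 71, all uncalled and with a reported log2 fold change of at most 0.14 in size, crossed 0, and the cause was not tested. The number of all genes called, in the order Asxl1Y588XTg against WT, Kdm6bΔ/+ against WT, Asxl1Y588XTg Kdm6bΔ/+ against Asxl1Y588XTg, Asxl1Y588XTg Kdm6bΔ/+ against WT, interaction, transgene and deletion, was 255, 15, 275, 34, 2, 304 and 55. It was 473, 39, 446, 114, 66, 507 and 167 with DESeq2 and 619, 53, 812, 182, 258, 784 and 444 without a filter on low counts. A mean count of at least 50 gave 149 for Asxl1Y588XTg against WT, 149 for Asxl1Y588XTg Kdm6bΔ/+ against Asxl1Y588XTg, 0 for the interaction and 164 for the transgene. The replicate block gave 101 and 71 in the same pairs, 66 for Asxl1Y588XTg Kdm6bΔ/+ against WT and 30 for the deletion, left all subunits uncalled, and only 1 of 12 libraries correlated best with its own number. One fit to all 12 libraries gave 446, 7, 162 and 14 for the 4 pairs. A term for Y-linked transcripts, added for the pairs to that joint fit, gave 6, 48, 3, 0, 154 and 8 in all but the first. With each library left out, the counts ran from 110 to 251, 7 to 26, 56 to 274, 14 to 50, 0 to 10, 169 to 358 and 18 to 85. Where a left-out library is 1 of 3, the pair left is assumed to vary like the other group. Of the log2 fold changes that crossed 0, that of Cbx7 for Kdm6bΔ/+ against WT was -0.0021 at a mean count of at least 50, and that of Ring1 for the deletion was 0.0055 without a filter. Phc2 for Asxl1Y588XTg Kdm6bΔ/+ against WT was 0.0011 with RLE scaling, 0.0010 with DESeq2, 0.011 without a filter and 0.0060 at a mean count of at least 50. With the Y-linked term, Ring1 was -0.13 and Pcgf5 -0.0064 for Kdm6bΔ/+ against WT, Rnf2 -0.023 and Pcgf1 -0.083 for Asxl1Y588XTg Kdm6bΔ/+ against Asxl1Y588XTg, and Cbx2 -0.027 and Cbx8 0.13 for Asxl1Y588XTg Kdm6bΔ/+ against WT. With each library left out, log2 fold changes for Asxl1Y588XTg against WT ran from -0.30 to 0.016 (Bmi1), -0.17 to 0.064 (Ring1), -0.16 to 0.066 (Pcgf6) and -0.0076 to 0.20 (Cbx2). For Kdm6bΔ/+ against WT they ran from -0.28 to 0.043 (Bmi1), -0.018 to 0.087 (Ring1), -0.13 to 0.010 (Rnf2), -0.014 to 0.048 (Pcgf5), -0.16 to 0.083 (Cbx2), -0.21 to 0.15 (Cbx7) and -0.072 to 0.042 (Phc2). For Asxl1Y588XTg Kdm6bΔ/+ against Asxl1Y588XTg they ran from -0.26 to 0.10 (Bmi1), -0.10 to 0.13 (Ring1), -0.061 to 0.093 (Rnf2), -0.11 to 0.16 (Pcgf1), -0.19 to 0.041 (Cbx2) and -0.018 to 0.17 (Cbx8). For Asxl1Y588XTg Kdm6bΔ/+ against WT they ran from -0.39 to 0.0018 (Bmi1), -0.081 to 0.013 (Ring1), -0.15 to 0.025 (Rnf2), -0.10 to 0.14 (Cbx2), -0.13 to 0.059 (Cbx8) and -0.044 to 0.063 (Phc2). For the interaction they ran from -0.17 to 0.26 (Bmi1), -0.14 to 0.10 (Ring1), -0.011 to 0.18 (Rnf2) and -0.16 to 0.10 (Cbx2), for the transgene from -0.087 to 0.0085 (Rnf2) and -0.053 to 0.17 (Pcgf1), and for the deletion from -0.18 to 0.0055 (Bmi1), -0.044 to 0.063 (Ring1) and -0.077 to 0.019 (Rnf2). The share differences ran from -0.95 to 0.43 points (Ring1, transgene), -0.32 to 1.06 (Ring1, deletion) and -1.77 to 0.59 (Phc2, transgene). With the longest transcript as length, Phc2 took rank 3, Pcgf5 2, Cbx8 8, Pcgf1 6 and Pcgf6 7. Low counts of Pcgf1 and Cbx7 limit their intervals.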
